A study of Mus musculus with 9 samples.

Results

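Neutral lipolysis is the stepwise release of fatty acids from stored triglyceride, and its core in mouse is made here of 6 genes taken by name from the count table: Pnpla2, Abhd5, G0s2, Lipe, Mgll and Abhd6. All 6 were found among the 53700 genes of the table, and all 6 passed the filter on low counts that left 18415 genes for testing. They were measured by RNA sequencing in C2C12, a mouse myoblast line that can fuse into myotubes. The study had 3 groups of 3 libraries, named Control, Valine and Val+PA, and every library came from 1 well of a 6-well plate, with 1 plate per group and its wells picked at random.

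All wells were grown with 10% fetal bovine serum and then starved for 12 h in OPTI-MEM, a medium low in serum. Control wells were collected at the end of the starvation. In the Valine plate, culture went on for 36 h with valine, a branched-chain amino acid, at 0.45 mM. In the Val+PA plate, valine at 0.45 mM was given for 24 h and palmitic acid, a long saturated fatty acid, at 75 µM for 12 h. Both treated groups were therefore collected later than Control, and no group without valine was collected at a later time. Treatment, time and plate thus cannot be told apart in any comparison with Control. The p-values measure the spread between wells of 1 plate per group.

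Lipolysis of a lipid droplet proceeds in 3 steps. Adipose triglyceride lipase (ATGL, from Pnpla2) cuts the first fatty acid from triglyceride, hormone-sensitive lipase (HSL, from Lipe) acts mainly on the resulting diglyceride, and monoglyceride lipases (from Mgll and Abhd6) release the last fatty acid and glycerol. ATGL is switched on by its co-activator CGI-58 (from Abhd5) and held back by the small protein G0S2, so the balance of these proteins is known to help set the rate of the first step. In muscle the pathway supplies fatty acids for oxidation and signalling, and in the cell types that store the most fat it is under hormone control through cAMP and protein kinase A (PKA).

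Promoter sequence is shown for the pair of genes that passed the test in a comparison, G0s2 and Lipe, and for Pnpla2, whose product G0S2 inhibits. Each stretch runs from 250 bases before to 50 bases after a RefSeq start site in GRCm38.p6 and is written 5′ to 3′ on the strand of the gene. Capitals mark matches, on either strand, to 9 short motifs of known factors or of the core promoter, which are spelled out after the sequences. Lipe has 2 start sites in the RefSeq table, and both are given.
G0s2, chr1:193273139-193273438, minus strand: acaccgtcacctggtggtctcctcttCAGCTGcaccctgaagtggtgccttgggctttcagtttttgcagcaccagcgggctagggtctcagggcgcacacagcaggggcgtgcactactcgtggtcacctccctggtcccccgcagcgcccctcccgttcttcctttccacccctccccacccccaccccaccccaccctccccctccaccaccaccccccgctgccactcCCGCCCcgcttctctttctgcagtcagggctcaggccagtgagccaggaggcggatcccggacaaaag
Pnpla2, chr7:141454938-141455237, plus strand: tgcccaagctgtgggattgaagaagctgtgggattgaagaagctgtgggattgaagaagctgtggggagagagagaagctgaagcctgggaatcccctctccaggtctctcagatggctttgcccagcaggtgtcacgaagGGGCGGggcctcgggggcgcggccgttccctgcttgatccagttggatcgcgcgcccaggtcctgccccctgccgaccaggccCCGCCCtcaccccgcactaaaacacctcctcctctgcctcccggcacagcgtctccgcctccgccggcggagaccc
Lipe, upstream start, chr7:25395938-25396237, minus strand: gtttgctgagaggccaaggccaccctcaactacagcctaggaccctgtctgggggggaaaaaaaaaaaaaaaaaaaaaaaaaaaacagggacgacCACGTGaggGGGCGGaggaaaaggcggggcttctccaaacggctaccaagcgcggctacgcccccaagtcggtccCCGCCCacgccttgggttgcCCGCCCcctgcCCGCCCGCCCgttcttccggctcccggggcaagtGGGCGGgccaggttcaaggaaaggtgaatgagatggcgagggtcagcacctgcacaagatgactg
Lipe, downstream start, chr7:25390063-25390362, minus strand: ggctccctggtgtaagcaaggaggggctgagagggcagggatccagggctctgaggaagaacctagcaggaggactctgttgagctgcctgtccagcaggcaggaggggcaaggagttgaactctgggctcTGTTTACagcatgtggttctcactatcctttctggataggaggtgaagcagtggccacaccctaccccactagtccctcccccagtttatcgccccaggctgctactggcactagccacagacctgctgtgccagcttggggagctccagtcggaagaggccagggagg

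The G0s2 stretch held 1 myogenic E-box, with its first base 224 bases before the start, and 1 GC box at 18 bases before it. The Pnpla2 stretch held GC boxes at 109 and 26 bases before its start and none of the other motifs. The upstream stretch of Lipe held 6 GC boxes, of which 2 overlap, and 1 palindromic E-box at 155 bases before the start, whereas its downstream stretch held only a FOXO site match, at 119 bases before the start. The 6 genes had 9 such stretches in all, with a GC content of 60.0% to 72.3% against 53.8% over all promoters. The shares that follow are not matched for GC content. GC boxes (GGGCGG, bound by factors of the Sp1 family) were in 8 of the 9, against 35.7% of all 32851 promoters in the table. The E-box that myogenic factors bind (CAGCTG) was in 3 of the 9, of G0s2 and Abhd6, against 16.3%. The 2 stretches of Abhd6 overlap and hold the same E-box and the same GC box, so these sites are counted 2 times. The FOXO site (GTAAACA) was in 2 of the 9, those of Lipe and Mgll, against 3.65%. The palindromic E-box (CACGTG) was also in stretches of Lipe and Mgll, 2 of the 9, against 7.15%. The element named for its letters CCAAT was in 1 stretch, of Abhd6, against 37.4%. The nuclear receptor half-site (AGGTCA) was in 1, of Abhd5, against 16.3%. The TATA box, with the letters TATAAA, was in none of the 9, against 13.6% of all promoters. The CREB half-site, TGACGT in letters, was also in none, against 7.51%. The site of ATF4, written TGATGNAA with N for any base, was in none either, against 3.97%. These are matches of letters in short windows and were not tested as binding sites.

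A library held 26750226 to 35976589 counts, and 1 count therefore equals 0.0271 to 0.0403 CPM, the count scaled to a fixed library total. The lipolysis genes had between 29 and 1681 counts in a library. Levels below include TMM scaling and are given as mean ± SD over 3 libraries. Control 3 and Val+PA 2 differed from the rest: mt-Co1, a mitochondrial gene, was at 1229 and 865 CPM in them, against 2935 to 5303 CPM in the other 7. Values without this pair of libraries are given for the members, their ratios, the marker sums and the counts of other pathway genes. All 6 listed myoblast genes passed the filter on low counts. They summed to 2144 to 2461 CPM in Control, 3426 to 3624 CPM in Valine and 3289 to 5263 CPM in Val+PA. Without Control 3 and Val+PA 2 the sums ran from 2144 to 2346 CPM in Control and from 3289 to 3882 CPM in Val+PA. Most of the Control sum was Des (1233 CPM) and Itga7 (770 CPM), while Myod1 was at 8.29 CPM. These levels are a description and do not test the myoblast label.

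The ATGL transcript did not pass the test in any comparison. Pnpla2 (ENSMUSG00000025509, GRCm38 chromosome 7, 141455198 to 141460743, plus strand) was at 5.61, 5.26 and 5.72 CPM in the Control libraries, 4.67, 5.93 and 4.81 CPM in Valine and 5.05, 6.63 and 4.85 CPM in Val+PA. The 3 groups overlapped, with the highest value in Val+PA 2 and the lowest in Valine 1. Group means were 5.53 ± 0.242, 5.14 ± 0.691 and 5.51 ± 0.973 CPM (SD, n = 3). The log2 fold change was -0.11 for Valine against Control (95% interval -0.47 to 0.26, adjusted p = 0.645, edgeR with Benjamini-Hochberg adjustment), which limits a change to between 0.722-fold and 1.20-fold. For Val+PA against Control the interval ran from -0.37 to 0.36. In bulk RNA, fewer cells with a transcript and less of it per cell cannot be told apart.

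The co-activator transcript was lower in every Valine library than in every Control library, but the difference missed the threshold. Abhd5 (ENSMUSG00000032540, chromosome 9, 122351608 to 122381524, plus strand) measured 47.5, 51.0 and 43.3 CPM in Control, 40.2, 39.3 and 39.7 CPM in Valine and 45.6, 39.3 and 41.6 CPM in Val+PA. Valine libraries lay close together below the Control range, and Val+PA libraries overlapped both. The means were 47.3 ± 3.90, 39.7 ± 0.452 and 42.2 ± 3.22 CPM (SD, n = 3). The log2 fold change of Valine against Control was -0.25 (SE 0.10, adjusted p = 0.0726, edgeR with Benjamini-Hochberg adjustment). It passed in 4 of 20 alternative settings, with values of -0.31 without Control 3 (adjusted p = 0.0344, edgeR) and -0.25 without Val+PA 2 (adjusted p = 0.0304, edgeR). It was -0.31 without both of these libraries (adjusted p = 0.00191, edgeR). Val+PA against Control gave -0.16 (95% interval -0.39 to 0.06) and Val+PA against Valine 0.09 (-0.14 to 0.31), neither called.

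The inhibitor transcript showed the largest difference of the 6 genes. G0s2 (ENSMUSG00000009633, chromosome 1, 193272161 to 193273217, minus strand) was at 8.91, 5.92 and 4.43 CPM in the Control libraries. It was at 18.6, 17.9 and 18.7 CPM in Valine and at 21.2, 27.0 and 19.0 CPM in Val+PA. Every treated library exceeded every Control library, and the lowest Control value was in Control 3, the highest treated value in Val+PA 2. The means were 6.42 ± 2.28, 18.4 ± 0.432 and 22.4 ± 4.16 CPM (SD, n = 3), from 110 to 278 counts a Control library and, in the treated groups, 616 to 683 and 613 to 843.

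G0s2 rose 2.85-fold in Valine against Control (95% interval 2.05 to 3.96, log2 fold change 1.51, SE 0.22, adjusted p = 0.000174, edgeR with Benjamini-Hochberg adjustment). It rose 3.47-fold in Val+PA against Control (2.49 to 4.82, log2 fold change 1.79, SE 0.22, adjusted p = 5.12e-05, edgeR). These comparisons use the same Control libraries. The Control libraries spread the most for their mean, with a coefficient of variation of 35.5% against 2.35% in Valine and 18.6% in Val+PA. Without Control 3 the log2 fold changes were 1.31 and 1.59, and without Control 3 and Val+PA 2 together they were 1.32 and 1.44. All of these were called, as were all 20 alternative settings of both comparisons, which ranged from 1.31 to 1.82 and from 1.44 to 2.10.

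G0s2 was not called between Val+PA and Valine, which are single plates that differ in palmitic acid and also in the time with valine alone. Although each Val+PA library lay above each Valine library, the log2 fold change was 0.28 (SE 0.21, 95% interval -0.17 to 0.73, adjusted p = 0.522, edgeR with Benjamini-Hochberg adjustment). The value was 0.12 without Control 3 and Val+PA 2, not called. The nearest values, 18.7 CPM in Valine 3 and 19.0 CPM in Val+PA 3, were almost equal.

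**Figure D1:**
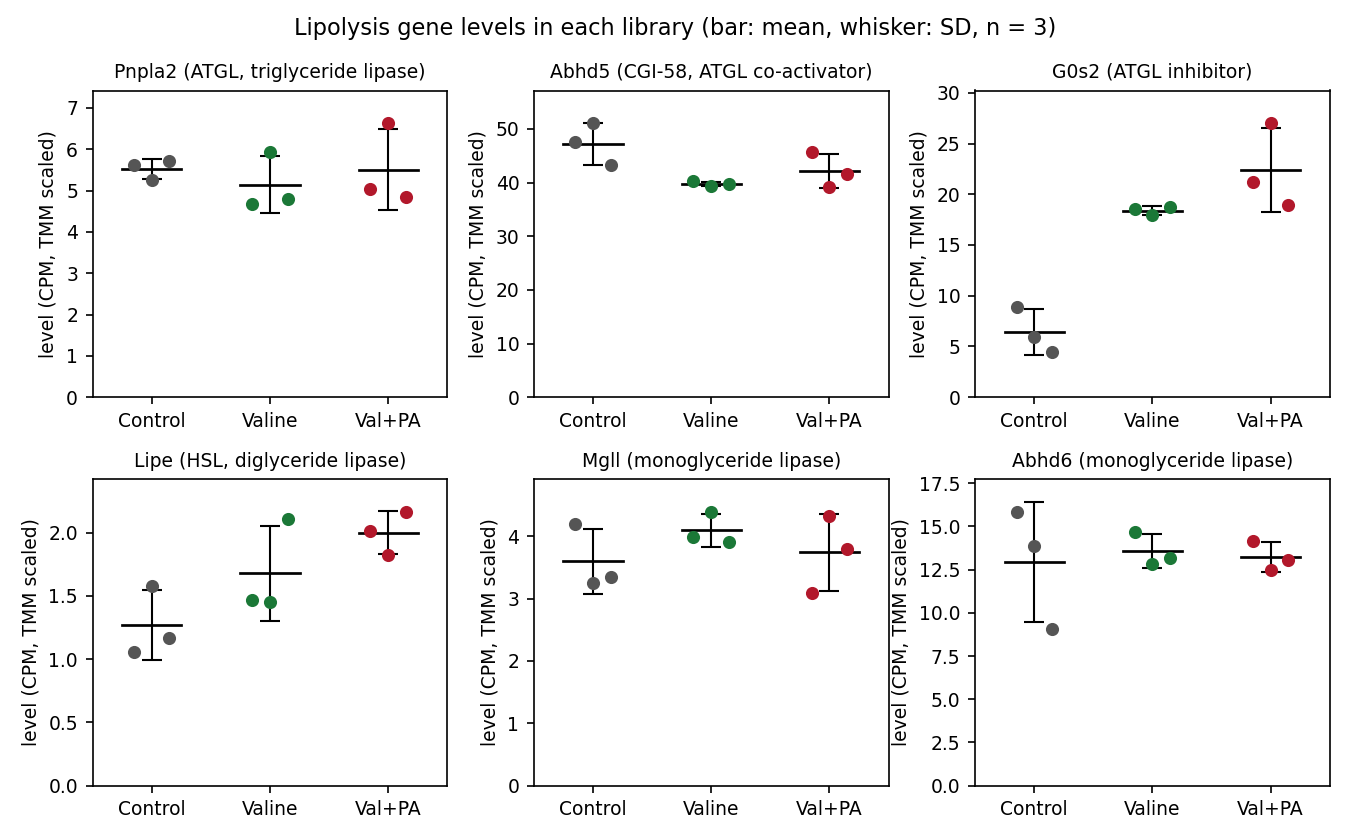
Level of each lipolysis gene in each library, in CPM after TMM scaling on axes that start at 0; points are libraries, bars are group means and whiskers are SD (n = 3). G0s2 sits between 4.43 and 8.91 CPM in Control and between 17.9 and 27.0 CPM in the treated groups, while the 3 groups overlap for Pnpla2, Mgll and Abhd6.

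The diglyceride lipase had the lowest level of the 6 genes and a difference near the threshold. Lipe (ENSMUSG00000003123, chromosome 7, 25379527 to 25398710, minus strand) was at 1.06, 1.58 and 1.17 CPM in Control, 1.47, 1.45 and 2.11 CPM in Valine and 2.01, 1.82 and 2.16 CPM in Val+PA. Valine overlapped both other groups, and each Val+PA library was above each Control library. The means were 1.27 ± 0.275, 1.68 ± 0.375 and 2.00 ± 0.169 CPM (SD, n = 3), from 29 to 74 counts a library. Lipe rose 1.57-fold in Val+PA against Control (95% interval 1.09 to 2.25, log2 fold change 0.65, SE 0.24, adjusted p = 0.0482, edgeR with Benjamini-Hochberg adjustment). That call was lost in 13 of 20 alternative settings, and over all 20 the adjusted p ranged from 0.0319 to 0.157 (edgeR, DESeq2 or limma). Left out 1 at a time, Control 1, Control 3, Valine 1, Valine 2, Val+PA 1 and Val+PA 3 each ended it, with a log2 fold change of 0.53 without Control 1 and 0.60 without Control 3. Without Control 3 and Val+PA 2 together it was 0.66 (adjusted p = 0.0605, edgeR). Valine against Control gave 0.39 (95% interval -0.13 to 0.92) and Val+PA against Valine 0.25 (-0.25 to 0.76), neither called.

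The monoglyceride lipases did not pass the test in any comparison. Mgll (ENSMUSG00000033174, chromosome 6, 88724412 to 88828360, plus strand), the main enzyme that degrades the endocannabinoid 2-arachidonoylglycerol, was at 4.20, 3.25 and 3.34 CPM in Control, 3.99, 4.39 and 3.90 CPM in Valine and 3.09, 4.32 and 3.80 CPM in Val+PA. All groups overlapped. Its means were 3.60 ± 0.524, 4.09 ± 0.261 and 3.74 ± 0.617 CPM (SD, n = 3), and the log2 fold change of Valine against Control was 0.18 (95% interval -0.20 to 0.57). Val+PA against Valine gave -0.13 (-0.52 to 0.25) and Val+PA against Control 0.05 (-0.34 to 0.44).

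Abhd6 (ENSMUSG00000025277, chromosome 14, 8002902 to 8056763, plus strand), a membrane-bound monoglyceride lipase, was at 15.8, 13.9 and 9.06 CPM in Control. It was at 14.7, 12.8 and 13.2 CPM in Valine and at 14.2, 12.5 and 13.0 CPM in Val+PA. The Control range enclosed both treated groups, and Control 3 held the lowest value, as it did for G0s2. Means were 12.9 ± 3.49, 13.6 ± 0.974 and 13.2 ± 0.871 CPM (SD, n = 3). The log2 fold change of Valine against Control was 0.07 (95% interval -0.32 to 0.45) and turned to -0.13 without Control 3, uncalled in both fits. For Val+PA against Control it was 0.03, and -0.17 without Control 3.

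Counted together, 1 of the 6 genes was called in Valine against Control, where 41.9% of all tested genes were called, 20.8% higher and 21.1% lower. The libraries of these groups did not overlap for 2 of the 6 genes (Abhd5 and G0s2), against 59.0% of all tested genes. Of the 6 genes, 2 were called in Val+PA against Control, both higher, where 39.2% of all tested genes were called, 20.4% higher and 18.8% lower. Again 2 of the 6 (G0s2 and Lipe) did not overlap, against 45.5%. The median log2 fold change of the 6 genes was 0.12 in Valine against Control and 0.04 in Val+PA against Control, beside medians of -0.0049 and -0.0018 over all tested genes. The G0s2 rise was far from the extreme of these libraries, since 937 tested genes called in Valine against Control and 638 called in Val+PA against Control had a larger one.

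None of the 6 genes was called by edgeR in Val+PA against Valine, where 0% of all tested genes were called. At an unadjusted p under 0.05 there were 2428 genes (13.2%), and DESeq2 called 212. The libraries did not overlap for 1 of the 6 genes (G0s2), against 24.6% of all tested genes, and the median log2 fold change of the 6 was 0.09.

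**Figure D2:**
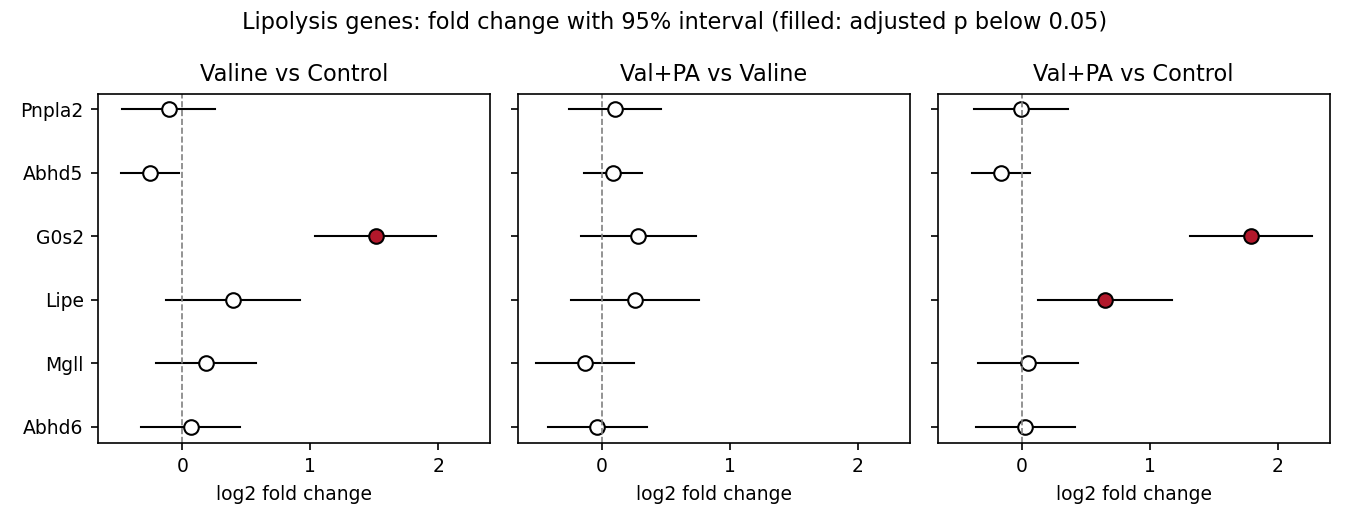
Log2 fold change of each lipolysis gene in the 3 comparisons, from edgeR, with 95% intervals as lines and filled points for an adjusted p below 0.05. G0s2 is at 1.51 and 1.79 against Control, Lipe is filled in Val+PA against Control, and all 6 intervals include 0 in Val+PA against Valine.

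Levels of different genes were compared on the deposited signal, which is relative to gene length. In Control the order was Abhd5 (16.2 ± 1.84), G0s2 (15.1 ± 5.50), Abhd6 (11.9 ± 3.43), Pnpla2 (3.74 ± 0.0718), Mgll (1.45 ± 0.215) and Lipe (0.442 ± 0.107), all in signal units (SD, n = 3). The first 3 overlapped one another, and the lower 3 did not overlap each other or those above. In Valine G0s2 came first at 44.3 ± 0.906 and in Val+PA at 53.6 ± 9.81, above every library of every other member, while the other 5 stayed in the same order. Among all tested genes, the mean G0s2 signal stood at percentile 68.3 in Control, and at 87.3 and 89.2 in the treated groups. That of Pnpla2 was 42.1, 40.5 and 41.5. For Abhd6 the length implied by the signal differed from that in the annotation, so its place beside Abhd5 is uncertain.

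The inhibitor and its target were therefore also set against each other within each library, a ratio chosen after the values were seen. The G0s2 to Pnpla2 ratio of length-relative signals was 5.51, 3.91 and 2.69 in the Control libraries. Its values were 13.8, 10.5 and 13.5 for Valine, and for Val+PA 14.5, 14.1 and 13.5. No Control library reached the treated range, and the treated groups overlapped. The ratio was 3.23-fold higher in Valine than in Control and 3.64-fold higher in Val+PA than in Control. An exact permutation test, two-sided, gave p = 0.1 for each, the smallest value that 3 libraries against 3 allow, and an adjusted p of 0.375 over the 15 ratio tests made. These folds were 2.69 and 3.02 without Control 3 and Val+PA 2. The ratio of G0s2 to the co-activator Abhd5 was 0.926 ± 0.314 in Control, and it was 3.17 ± 0.0562 with valine and 3.66 ± 0.900 with both agents (SD, n = 3). Its Val+PA mean rests on Val+PA 2, at 4.70 against 3.17 and 3.11, and without Control 3 and Val+PA 2 the means were 1.04, 3.17 and 3.14. The ratio of Abhd5 to Pnpla2 was 4.35 ± 0.546, 3.97 ± 0.536 and 3.98 ± 0.852, with overlap among all groups. All of these are ratios of RNA, and neither protein nor lipolysis was measured in these libraries.

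**Figure D3:**
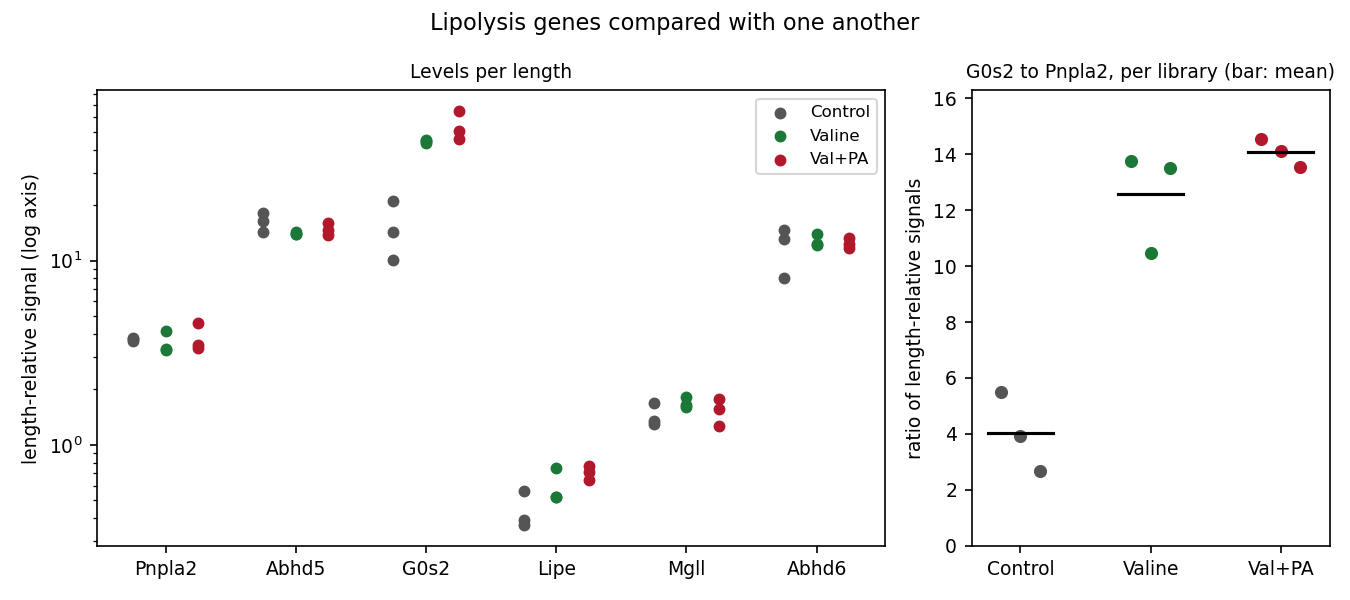
Left, length-relative signal of each lipolysis gene in each library, on a log axis, coloured by group; right, the ratio of the G0s2 to the Pnpla2 signal in each library, with bars at the group means and an axis from 0. The ratio runs from 2.69 to 5.51 in Control and from 10.5 to 14.5 in the treated libraries.

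Other genes lie across some of the members. The libraries were strand-specific, but the strand setting of the counting is not given in the sources used here. It therefore cannot be told whether the counts kept reads of a gene apart from those of an antisense partner. G0s2 lies inside Lamb3, a laminin chain gene on the opposite strand, with 0 exon bases in common. Lamb3 rose as well, from 28.5 CPM in Control to 51.5 CPM in Valine (log2 fold change 0.85, adjusted p = 0.000583, edgeR with Benjamini-Hochberg adjustment) and 53.6 CPM in Val+PA (0.91). The count of shared exon bases does not cover reads from Lamb3 introns, and the part of Lamb3 in the G0s2 result was not tested. Lipe shares 918 exon bases, 15.6% of its exons, with the antisense gene 4732471J01Rik, which had 10 to 16 counts a library in Control and, in the treated groups, 21 to 34 and 33 to 46. That partner rose in Val+PA against Control as Lipe did, with a log2 fold change of 1.41 (adjusted p = 0.0067, edgeR), and its part in the Lipe result was not tested. Abhd5 shares 950 exon bases (16.0%) with the antisense gene A730085K08Rik, which had 1 to 5 counts a library. Mgll shares 167 (3.29%) with Gm26588, which had 0 counts, and Pnpla2 and Abhd6 share none.

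Markers of cell states moved beside G0s2. Of all tested genes, 20.8% rose in Valine against Control and 20.4% in Val+PA against Control. All 8 listed myotube genes were tested and all 8 rose in both comparisons with Control. Their summed level was 7.97 to 9.65 CPM in Control, 73.6 to 79.5 CPM in Valine and 51.2 to 73.5 CPM in Val+PA. Of 7 fibroblast and fibro-adipogenic progenitor genes, 6 were tested and 5 rose in both comparisons. Pdgfra was not called (log2 fold change 0.26 in Valine and 0.23 in Val+PA), but was in Valine without Control 3 and Val+PA 2 (0.28). Thy1, with 17 counts in total, was not tested. The list summed to 1191 to 1752 CPM in Control, 3388 to 3497 CPM in Valine and 3117 to 4283 CPM in Val+PA. Most of the Valine sum was Col3a1 (1597 CPM) and Ly6a (1399 CPM). Without Control 3 and Val+PA 2 the Control and Val+PA sums ran from 8.45 to 9.65 and 51.2 to 63.1 CPM for the myotube list, and from 1191 to 1208 and 3117 to 3599 CPM for the fibroblast list. The part of either in the G0s2 result was not tested.

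Adipocytes are cells in which G0s2, Lipe and Pnpla2 are abundant. Their defining genes Adipoq, Lep and Retn had 0 counts in every library. Only 3 of 10 listed adipocyte genes could be tested and none was called by edgeR. Over all tested genes 20.8% were called higher and 21.1% lower in Valine against Control. In Val+PA against Control the shares were 20.4% and 18.8%, and the counts of each list below stand beside these shares. The adipocyte list summed to 25.7 to 31.5 CPM in Control, 23.7 to 26.8 CPM in Valine and 29.9 to 38.3 CPM in Val+PA. Most of the Control sum was Pparg (14.0 CPM) and Cebpa (14.5 CPM), which are also among the transcription factors below. Cfd, the other tested gene of the list, was at 0.259 CPM in Control. Of 6 endothelial genes 3 were tested, and 3 rose in Valine and 2 in Val+PA. The untested ones were Emcn, with 0 counts, and Pecam1 and Cdh5, with 25 and 22 counts over all 9 libraries. The endothelial list summed to 1.83 to 2.26 CPM in Control, 6.36 to 7.86 CPM in Valine and 6.35 to 10.7 CPM in Val+PA. Of 7 immune genes 2 were tested, and they differed in direction: Cd68, a lysosomal protein gene of macrophages, rose from 1.77 to 5.11 CPM in Valine, and Csf1r, a macrophage receptor gene, fell by 1.79 on the log2 scale. Both were called in the same directions in Val+PA, with log2 fold changes of 1.67 and -1.72. The immune list summed to 1.81 to 3.05 CPM in Control, and to 4.89 to 6.11 and 5.73 to 7.17 CPM in the treated groups. Without Control 3 and Val+PA 2, Control and Val+PA sums were 25.7 to 29.1 and 29.9 to 30.2 CPM for the adipocyte list, 1.83 to 1.85 and 6.35 to 7.20 CPM for the endothelial list and 3.01 to 3.05 and 6.06 to 7.17 CPM for the immune list. Csf1r was then not called in Val+PA (-1.23). The part of these lists in the G0s2 result was not tested.

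The 6 genes were next set beside 78 other genes of the pathway, listed by role, of which 61 could be tested. In Valine against Control 14 of the 61 rose and 16 fell (23.0% and 26.2%), with a median log2 fold change of -0.05. In Val+PA against Control 16 rose and 11 fell (26.2% and 18.0%), with a median of 0.12. In this fit to all 9 libraries these shares stand near those of all tested genes. The latter were 20.8% higher and 21.1% lower in Valine and 20.4% and 18.8% in Val+PA. The counts of each role below stand beside the same shares. In Val+PA against Valine none of the 61 was called by edgeR. A setting without Control 3 and Val+PA 2 was added for these lists after their values were seen. In it 21 of the 61 rose and 18 fell in Valine against Control, beside 27.0% higher and 27.2% lower over all tested genes. Val+PA against Control then had 22 of the 61 that rose and 15 that fell, beside 25.2% and 24.6%. Val+PA against Valine had 2 that rose, Plin4 and Cebpb, and 1 that fell, Prkar2b, beside 1.66% and 1.55%. In the account of each role, the called genes with the largest rise and the largest fall were named by rule, and any further gene was named after its values were seen.

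Genes of the lipid droplet surface and of ATGL regulation fell or were not called in the comparisons with Control. In Valine against Control 4 of 8 tested genes fell and none rose, beside 21.1% lower and 20.8% higher over all tested genes. Their median log2 fold change was -0.44. The coat protein gene Plin4 fell from 41.8 ± 2.5 to 12.8 ± 0.90 CPM (SD, n = 3), and in Val+PA it was at 21.9 ± 4.1 CPM. The others that fell were Bscl2 (seipin, which shapes nascent droplets), Hilpda (another ATGL inhibitor) and Plin2 (the coat protein of most cells). Hilpda went from 19.6 to 14.3 CPM, a log2 fold change of -0.45 (SE 0.11), so these inhibitor transcripts moved in opposite directions in Valine. In Val+PA against Control 2 of the 8 fell, Bscl2 with a log2 fold change of -1.06 and Plin4 with -0.93, and none rose. Over all tested genes 18.8% were lower and 20.4% higher in that comparison. Hilpda was at 17.5 CPM there and was not called. In Val+PA against Valine the smallest p of this group was that of Plin4, with a log2 fold change of 0.78 (adjusted p = 0.168, edgeR with Benjamini-Hochberg adjustment). It was 0.61 without Control 3 and Val+PA 2 (adjusted p = 0.00244, edgeR).

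Among other lipases of neutral lipids, 2 of 7 tested genes rose and 2 fell in both comparisons with Control. Without Control 3 and Val+PA 2, 3 rose and 2 fell in Valine, beside 27.0% and 27.2% of all tested genes. In Val+PA 3 then rose and 3 fell, beside 25.2% and 24.6%. Lpl, the lipase that releases fatty acids from circulating lipoproteins, was at 26.8 ± 7.2 CPM in Control, 88.4 ± 3.2 CPM in Valine and 75.2 ± 14 CPM in Val+PA (SD, n = 3). It rose by 1.72 and 1.48 on the log2 scale. Lipa, the lysosomal acid lipase, rose by 0.85 and 0.83. Ddhd1, a phospholipase, fell by 0.63 and 0.54, and Nceh1, a cholesteryl ester hydrolase, fell by 0.47 and 0.34. The smallest p in Val+PA against Valine was that of Pnpla7 (log2 fold change 0.27, not called). Genes of endocannabinoid turnover, in which Mgll and Abhd6 also take part, had 1 of 6 tested genes called in Valine against Control. That was Napepld, an anandamide-forming enzyme, which fell by 0.53 and, in Val+PA, by 0.58 on the log2 scale. Faah, which degrades anandamide, rose by 0.97 in Val+PA against Control, and gave 0.73 against Valine, not called. Without Control 3 and Val+PA 2, none of these 6 rose and 2 fell in Valine, beside 27.0% and 27.2% of all tested genes. In Val+PA 1 then rose and 2 fell, beside 25.2% and 24.6%.

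Of 18 tested genes of the hormone and PKA arm, 7 rose, 5 fell and 6 were not called in Valine against Control, where 20.8% of all tested genes rose and 21.1% fell. In Val+PA against Control 8 rose, 3 fell and 7 were not called, beside 20.4% and 18.8%. Without Control 3 and Val+PA 2, 12 rose and 5 fell in Valine against Control, where 27.0% of all tested genes rose and 27.2% fell. In Val+PA against Control 10 then rose and 4 fell, beside 25.2% and 24.6%. The adenosine receptor gene Adora1, whose product inhibits cAMP formation, had the largest log2 fold change of the group at 2.38 in Valine and 1.57 in Val+PA, at mean levels of 0.0792, 0.428 and 0.243 CPM in the 3 groups. Its call in Val+PA was lost without Control 3 and Val+PA 2 (1.34). Akap1, a PKA anchor, fell by 1.02 in Valine, and Prkar2a, a regulatory subunit of PKA, fell by 1.11 in Val+PA. Another regulatory subunit gene, Prkar2b, rose by 1.05 in Valine, from 101 to 208 CPM, and had the smallest p of the group in Val+PA against Valine (-0.48, not called, and -0.33, called, without Control 3 and Val+PA 2). Adrb1, a β-adrenergic receptor gene, rose by 1.19 in Valine, at levels of 0.395 CPM in Control and 0.921 CPM in Valine. Adrb3, the main receptor of this arm in rodent fat, had no count in any library.

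Of 13 tested genes for transcription factors known to act on Pnpla2, Lipe or G0s2, 2 rose and 2 fell in Valine against Control. Ppargc1a, a coactivator of oxidative genes, was at 1.45 ± 0.28 CPM in Control, 7.58 ± 0.98 CPM in Valine and 6.68 ± 1.5 CPM in Val+PA (SD, n = 3), rising by 2.39 and 2.21 on the log2 scale. Egr1, an immediate early factor known to repress Pnpla2 transcription, was at 36.4 ± 3.6, 7.11 ± 0.95 and 9.03 ± 1.6 CPM and fell by 2.35 and 2.01. Foxo1, known to activate Pnpla2, gave 0.36 in Valine (adjusted p = 0.0416, edgeR with Benjamini-Hochberg adjustment) and 0.34 in Val+PA, not called, where it was 0.39 and called without Control 3 and Val+PA 2. Pparg, an activator of G0s2 and Pnpla2 in fat cells, was not called, at 14.0, 12.8 and 15.2 CPM. In Val+PA against Control 2 genes of this group rose and 1 fell, and in Val+PA against Valine the smallest p was that of Cebpb (log2 fold change 0.81, not called). Cebpb was called at 0.62 without Control 3 and Val+PA 2. In that fit 4 genes of this group rose and 2 fell in Val+PA against Control, beside 25.2% and 24.6% of all tested genes. In Valine against Control 3 then rose and 3 fell, beside 27.0% and 27.2%.

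Genes that handle the released fatty acid and glycerol had 3 of 9 tested members that rose and 2 that fell in both comparisons with Control. Without Control 3 and Val+PA 2, 3 rose and 2 fell in Valine, beside 27.0% and 27.2% of all tested genes. In Val+PA 4 then rose and 2 fell, beside 25.2% and 24.6%. Aqp9, a glycerol channel, rose by 3.39 in Valine and 4.18 in Val+PA on the log2 scale, from 0.157 ± 0.15 CPM in Control to 1.69 ± 0.15 and 2.93 ± 0.32 CPM (SD, n = 3). Gk, the glycerol kinase gene, fell from 32.1 to 10.8 CPM in Valine, by 1.56 on the log2 scale. Fabp5, a fatty acid binding protein gene, fell by 1.48 in Val+PA, from Control libraries with a wide spread (70.6 ± 37 CPM). Acsl1 and Acsl3, which activate fatty acids to acyl-CoA, rose in both comparisons.

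**Figure D4:**
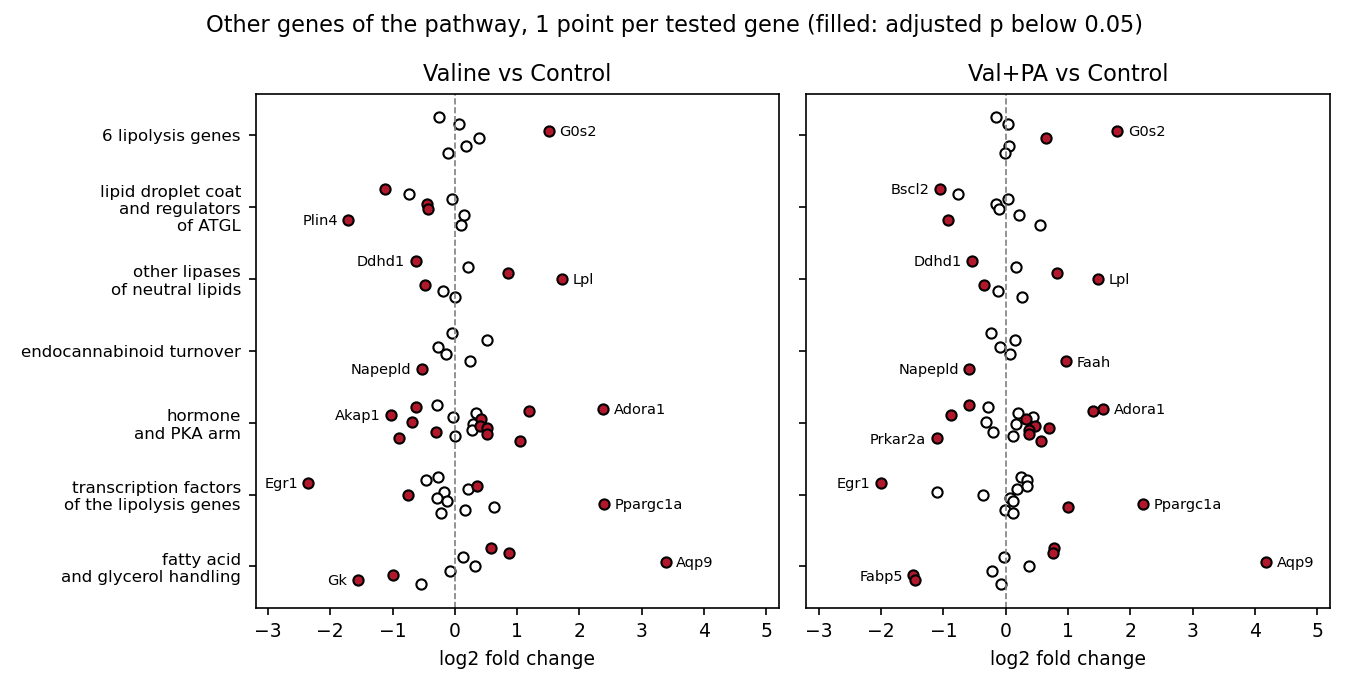
Log2 fold change of the 6 lipolysis genes and of the 61 tested genes of 6 other groups of the pathway, against Control; each point is 1 gene, filled where the edgeR adjusted p is below 0.05, and labels mark the called genes with the largest rise and fall of a group. G0s2 lies at 1.51 and 1.79, with Lpl, Ppargc1a and Aqp9 also to the right and Plin4, Egr1 and Gk to the left.

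The patterns of the members over the 9 libraries were compared with those of 10916 candidate genes by Pearson correlation of log2 CPM, as a description in which library and group are shared. The genes most like G0s2 were Mmp19 (r = 0.993), a secreted metalloproteinase gene at 2.69, 7.14 and 7.66 CPM in the 3 groups, and Rcn3 (r = 0.992), for a calcium-binding protein of the endoplasmic reticulum, at 8.45, 19.4 and 21.0 CPM. Abhd5 was nearest to Usp24 (r = 0.968) and Slc7a6 (r = 0.955), an amino acid transporter gene at 62.7, 47.7 and 52.2 CPM. Lipe was nearest to Ifi47 (r = 0.917) and Ripor2 (r = 0.890), Abhd6 to Arpc3 (r = 0.940) and Nxf1 (r = 0.937), Pnpla2 to Iqce (r = 0.921) and Fzd2 (r = 0.896), and Mgll to Dedd (r = 0.863) and Sema3f (r = 0.835).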

How the data were processed

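RNA was measured in 9 C2C12 libraries, grouped by their labels. The libraries were strand-specific and made from total RNA, per the labels' protocols. The submitters' processing notes name HISAT2, featureCounts, DESeq2 and GRCm38, with no settings. One deposited table gives raw read counts, whole numbers without normalization. A deposited normalized table holds a signal that, for 98.4% of 6800 genes with at least 500 counts in every library, was within 1% of the count divided by exon length times a factor per library. It served to compare genes with one another and as an alternative unit.

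GENCODE M21 (GRCm38) supplied exons and symbols, for 52147 IDs. Counts were filtered with filterByExpr, scaled by TMM and fitted by quasi-likelihood in edgeR 4.0.16 (R 4.3.3), with group as the only term and all 9 libraries in 1 fit (6 residual degrees of freedom). Tests were two-sided with Benjamini-Hochberg adjustment over 18415 genes at 0.05. Standard errors were derived from the log2 fold change and the F statistic. The script was tested on simulated counts. The 20 alternatives comprised DESeq2 1.42.0, limma 3.58.1, other scaling and filters, the 2 groups alone, a replicate block, the deposited signal on a log2 scale with a pseudocount of 1 or 0.1, and left-out libraries. No pair of libraries was alike within sampling noise.

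The genes named are the members, in each list of pathway genes the called genes with the largest rise and fall (or else the smallest p), and the 2 genes most like each member with a mean of at least 2 CPM. The members and lists were chosen with earlier results of these data known.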

Additional observations from a re-analysis of the deposited data

How the results depend on the processing

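The G0s2 calls against Control held under all 20 alternatives. The cause of the changes below was not tested.

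The number of lipolysis genes called in Val+PA against Control went from 2 to 1, with the loss of Lipe, under DESeq2 (log2 fold change 0.64), RLE factors (0.64), no filter (0.66), the 2 groups alone (0.65), a replicate block (0.65, adjusted p = 0.0647, edgeR with Benjamini-Hochberg adjustment), the fit without Control 3 and Val+PA 2 (0.66) and log2 of the deposited signal plus 0.1 (0.59). Leaving out 1 library gave 1 to 2 genes called there, with 0.53 to 0.84 for Lipe. In Valine against Control the number went from 1 to 2, with the gain of Abhd5, for the 2 groups alone (-0.24) and without Control 3 and Val+PA 2 (-0.31). Leaving out 1 library gave 1 to 2 genes called there, with -0.31 to -0.19 for Abhd5.

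Some uncalled values changed sign, and none of them was called. Pnpla2 in Val+PA against Control was 0.031 with library size alone, 0.011 with no filter, and 0.012 and 0.013 with the deposited signal plus 1 and plus 0.1. Without Control 3 and Val+PA 2, Abhd6 was -0.13 in Valine against Control, -0.12 in Val+PA against Control and 0.0029 in Val+PA against Valine, Pnpla2 was -0.054 in Val+PA against Valine, and Mgll was -0.11 in Val+PA against Control. Leaving out 1 library gave these ranges: for Pnpla2 -0.16 to 0.081 in Val+PA against Control and -0.052 to 0.22 in Val+PA against Valine; for Mgll -0.064 to 0.18 in Val+PA against Control; for Abhd6 -0.13 to 0.23 in Valine against Control, -0.17 to 0.20 in Val+PA against Control and -0.090 to 0.020 in Val+PA against Valine.

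Over all genes, Val+PA against Valine had 0 calls by edgeR, 212 by DESeq2, 763 with no filter and 604 without Control 3 and Val+PA 2. Same-numbered libraries correlated from -0.27 to 0.16 in their deviations, and differently numbered ones from -0.33 to 0.28. Deviations from a mean of 3 libraries depend on one another, so these values cannot decide whether the numbers pair samples. The replicate block changed the call of Lipe alone among the 6 genes. Of the 6 genes Lipe had the fewest counts, 29 to 74 a library.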
